A study of Mus musculus with 6 samples.

Results

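The genes described here are 10 that report on fibroblast growth factor (FGF) signalling through the kinase ERK, taken by name from a table of 48587 gene rows: the receptors Fgfr1 and Fgfr2, the ETS transcription factors Etv1, Etv4 and Etv5, and the feedback inhibitors Spry1, Spry2, Spry4, Spred1 and Dusp6. All 10 had a row, and all 10 passed the low-count filter that left 14311 genes for testing. The counts come from ribosome-bound RNA of neonatal mouse kidney in 6 libraries. Of these, 3 were from Foxp1-deficient mice (Cdh16Cre;Foxp1fl/fl;RiboTag) and 3 were from littermate controls (Cdh16Cre;Foxp1fl/+;RiboTag), so the controls also lacked 1 functional Foxp1 allele in cells with Cre. Foxp1 encodes a forkhead transcription factor. The Cre transgene uses regulatory sequence of Cdh16, which encodes a cadherin of tubule cells. RiboTag is a ribosomal protein allele that gains an HA epitope after Cre recombination, so that anti-HA pulldown enriches RNA under translation in Cre-expressing cells. The treatment label was chronic acid load in the Foxp1-deficient group and vehicle in controls, while the protocols described no acid load, so genotype and treatment cannot be told apart. The labels do not say that replicates were separate animals, so p-values reflect only library-to-library spread, possibly technical.

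FGF receptors are tyrosine kinases. Once bound by ligand, they recruit adaptors that switch on Ras, and Ras starts the kinase cascade that ends in ERK. ERK raises transcription of the Etv genes and of its own inhibitors, so these transcripts are widely used as a readout of the pathway. In developing mouse kidney, Fgfr2 acts in the ureteric bud and both receptors act in the mesenchyme, Etv4 and Etv5 act downstream of Ret in bud branching, and Spry1 restrains Ret signalling so that a single bud forms.

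Total counts ranged from 9710048 to 18958196 in Foxp1-deficient libraries and from 11264609 to 18206881 in controls. Foxp1 itself had 36.3, 9.17 and 33.7 CPM (counts scaled to a common library total) in Foxp1-deficient libraries 1, 2 and 3, against 51.4, 26.0 and 40.5 CPM in controls 1, 2 and 3. Its log2 fold change was -0.62 (SE 0.49, adjusted p = 0.9998, edgeR quasi-likelihood test). Between libraries of equal number, the log2 differences were -0.501, -1.505 and -0.266 in pairs 1, 2 and 3. With the replicate number fitted as a block, the fold change was -0.72 (SE 0.28, unadjusted p = 0.0496, adjusted p = 0.853, edgeR). An unadjusted p under 0.05 was reached by 5.32% of genes tested in that fit. Gene-level counts also include exons left in the floxed allele and cells without Cre. The labelled cell type was tubular, yet markers of tubule epithelium were scarce in 4 libraries. The 10 tubule markers summed to 60.9, 106 and 569 CPM in Foxp1-deficient libraries 1, 2 and 3 and to 35.9, 49.1 and 448 CPM in controls 1, 2 and 3. Of these 10, 1, 5 and 0 had no count in Foxp1-deficient libraries 1, 2 and 3 and 5, 5 and 0 had none in controls 1, 2 and 3. A single marker, Lrp2, made up most of the tubule sum in libraries 1 and 2 of both genotypes. Lrp2 had 55.2 and 97.4 CPM in Foxp1-deficient libraries 1 and 2, and 34.9 and 27.4 CPM in controls 1 and 2. Stromal markers, 10 in number, summed to between 3436 and 22896 CPM in Foxp1-deficient libraries and between 6009 and 21904 CPM in controls. In whole-kidney pulldowns of this kind, fewer cells of a type and less RNA per cell cannot be told apart.

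None of the 10 genes passed the test between genotypes, in a fit without a block that also called no changed gene in simulated data with the differences between replicate numbers kept, so its lack of calls does not show equal levels. With edgeR's quasi-likelihood test and Benjamini-Hochberg adjustment at 0.05, 0 of 10 were called, against 0.00% of the 14311 genes tested, and 0 of 10 had an unadjusted p under 0.05, against 0.720% of genes tested. The fold change was below 0 for 7 of 10 and above 0 for 3, with a median log2 fold change of -0.22, whereas it was below 0 for 46.4% of all genes tested, with a median of 0.03. By library total, 5 of 10 were lower in the Foxp1-deficient library of every equally numbered pair (Fgfr1, Fgfr2, Etv5, Spred1 and Dusp6), against 16.1% of genes tested, and 1, Spry1, was higher in all 3 pairs, against 16.5%. With CPM scaled by TMM, a scaling that allows for differences in RNA composition, Fgfr1 left the first group, since its values in pair 2 were 25.12 CPM in Foxp1-deficient 2 and 25.10 CPM in control 2.

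**Figure D1:**
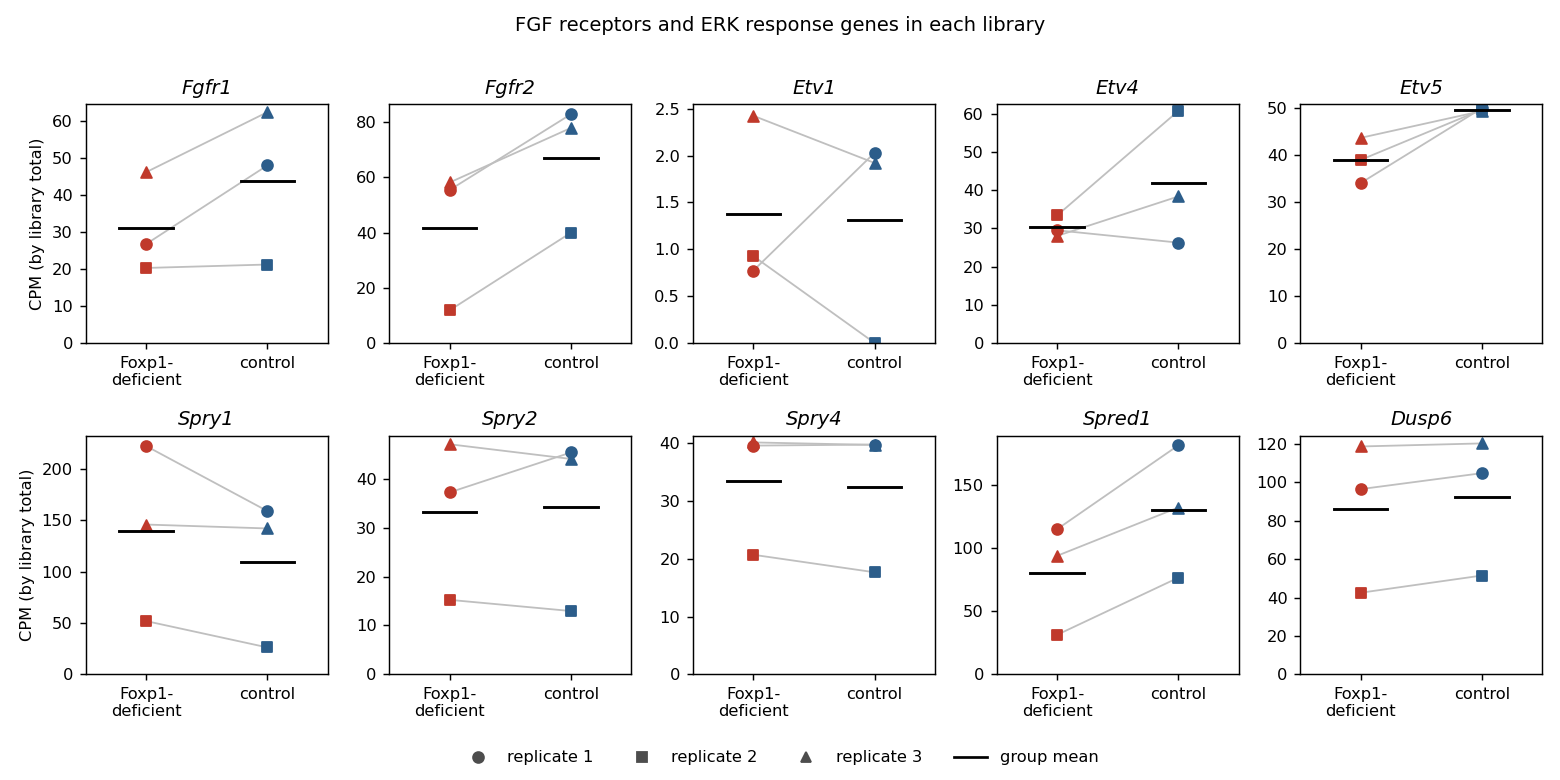
CPM by library total of each of the 10 genes (vertical axes, linear, from 0) in the 3 Foxp1-deficient (left, red) and 3 control libraries (right, blue); symbols mark the replicate number, grey lines join libraries of equal number and black bars are group means. Etv5 is the gene whose groups stand apart, with 34.0 to 43.6 CPM in Foxp1-deficient libraries and 49.3 to 49.9 CPM in controls.

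The receptors had lower values in Foxp1-deficient libraries, within the spread between libraries. Fgfr2 (chromosome 7, exons of the row from 130162451 to 133123350, mm10) had 55.5, 11.8 and 58.2 CPM in Foxp1-deficient libraries 1, 2 and 3, against 82.9, 40.0 and 77.9 CPM in controls 1, 2 and 3. Each Foxp1-deficient library was below the control of its number, but the groups overlapped, because control 2 lay below Foxp1-deficient 1 and 3. The log2 fold change was -0.72 (SE 0.53, unadjusted p = 0.213, adjusted p = 0.9998, edgeR), and without Foxp1-deficient library 2 it was -0.33. Fgfr1 (chromosome 8, 25513654 to 25575718) had 26.8, 20.3 and 46.2 CPM in Foxp1-deficient libraries 1, 2 and 3, against 48.0, 21.2 and 62.4 CPM in controls 1, 2 and 3. Its groups overlapped too, with a log2 fold change of -0.47 (SE 0.43, adjusted p = 0.9998, edgeR). The exons of the Fgfr2 row reach far beyond its RefSeq promoter at chr7:130266759-130267058, so its deposited length may include a distant exon, which would lower its values per length. Per deposited length, Fgfr2 stood at 1.98, 0.558 and 1.20 times Fgfr1 in Foxp1-deficient libraries 1, 2 and 3 and at 1.65, 1.80 and 1.19 times Fgfr1 in controls 1, 2 and 3. Foxp1-deficient 2, where Fgfr2 rested on 115 counts, was the one library with less Fgfr2 than Fgfr1.

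Among the Etv genes, which encode related ETS-domain activators of transcription, Etv5 had the smallest SD of CPM across controls, whereas per length, as TPM, Etv4 varied less than Etv5. Etv5 (chromosome 16, 22381309 to 22439719) had 34.0, 38.9 and 43.6 CPM in Foxp1-deficient libraries 1, 2 and 3, against 49.9, 49.6 and 49.3 CPM in controls 1, 2 and 3. The groups did not overlap, as was so for 2.07% of genes tested in that direction, while 0 of 10 genes stood apart on the higher side, against 2.10%. The mean was 38.9 ± 4.81 CPM in Foxp1-deficient libraries and 49.6 ± 0.302 CPM in controls (SD, n = 3 each). This separation depended on the scaling: with TMM, Etv5 had 32.4, 48.2 and 37.9 CPM in Foxp1-deficient libraries 1, 2 and 3, against 47.4, 58.7 and 43.6 CPM in controls 1, 2 and 3, and the groups overlapped, as Foxp1-deficient 2 lay above controls 1 and 3. Under TMM 0 of 10 genes stood apart on the lower side, against 2.11%, and 0 of 10 on the higher side, against 2.64%. The log2 fold change was -0.34 (SE 0.34, unadjusted p = 0.351, adjusted p = 0.9998, edgeR).

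Etv4 (chromosome 11, 101769742 to 101785371) had 29.5, 33.4 and 28.0 CPM in Foxp1-deficient libraries 1, 2 and 3, against 26.3, 60.7 and 38.3 CPM in controls 1, 2 and 3. Foxp1-deficient libraries varied little, while control 2 was high and control 1 lay below all 3 Foxp1-deficient libraries. Its log2 fold change was -0.48 (SE 0.49, adjusted p = 0.9998, edgeR), and without control 2 it turned to 0.07. Etv1 (chromosome 12, 38779380 to 38868215) was low, with 13, 9 and 46 counts in Foxp1-deficient libraries 1, 2 and 3 and 29, 0 and 35 counts in controls 1, 2 and 3. The count of 0 in control 2 allows up to 0.266 CPM, taking 3 counts as the limit, and covers counting error only. The log2 fold change of 0.13 had an SE of 1.49, so no difference was detectable in these libraries. Without both libraries numbered 2 the log2 fold change was -0.34 (SE 0.79).

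Since the tested factor is a forkhead protein and the Etv factors bind ETS sites, the promoters were searched on both strands for TGTTTAC, a forkhead core, and for CCGGAA and AGGAAGT, which share the ETS core GGAA. RefSeq promoter windows (GRCm38.p6, 250 bases before to 50 after the start site) were at hand for 7 of the 10 genes, as 9 windows. Both windows of Etv5 are shown because its groups did not overlap by library total, with the matches in capitals.
Etv5, chr16:22439521-22439820, minus strand: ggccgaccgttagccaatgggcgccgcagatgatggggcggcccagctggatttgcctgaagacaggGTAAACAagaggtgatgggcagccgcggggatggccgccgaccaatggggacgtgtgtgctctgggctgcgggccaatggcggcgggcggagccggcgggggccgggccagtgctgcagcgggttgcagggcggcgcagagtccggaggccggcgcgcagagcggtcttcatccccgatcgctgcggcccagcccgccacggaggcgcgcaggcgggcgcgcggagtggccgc
Etv5, chr16:22438319-22438618, minus strand: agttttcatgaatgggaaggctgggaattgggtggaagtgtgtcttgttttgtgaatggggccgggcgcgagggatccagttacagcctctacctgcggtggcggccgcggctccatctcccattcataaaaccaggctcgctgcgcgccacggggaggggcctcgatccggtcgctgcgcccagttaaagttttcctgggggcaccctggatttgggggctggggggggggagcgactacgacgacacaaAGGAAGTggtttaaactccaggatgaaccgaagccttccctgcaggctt
The first window held GTAAACA, the reverse complement of the forkhead core, starting 183 bases before the start site, and the second held AGGAAGT starting 1 base after its own. The forkhead core was in 1 of the 9 windows, and in 3.65% of all 32851 promoter windows of this length. AGGAAGT was in 2 of 9, the other being an Etv1 window with the match starting 4 bases before the start site, and in 9.35% of all windows. CCGGAA was in 1 of 9, in Spry2 starting 33 bases after the start site, and in 14.9% of all windows. A match is only a run of letters and shows no binding.

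The feedback inhibitors went different ways. Spred1 (chromosome 2, 117121374 to 117182279), whose protein brings the Ras inhibitor neurofibromin to the membrane, had 115, 31.4 and 94.1 CPM in Foxp1-deficient libraries 1, 2 and 3, against 182, 76.7 and 132 CPM in controls 1, 2 and 3. It was lower in all 3 pairs, by log2 differences of -0.66, -1.29 and -0.49 in pairs 1, 2 and 3, and the groups overlapped only because control 2 was below Foxp1-deficient 1 and 3. The log2 fold change was -0.72 (SE 0.48, unadjusted p = 0.173, adjusted p = 0.9998, edgeR). A block for the replicate number gave -0.79 (SE 0.18, unadjusted p = 0.00743, adjusted p = 0.774, edgeR). DESeq2 with the same block called 1 of the 10 genes, Spred1, lower (log2 fold change -0.79, SE 0.23, adjusted p = 0.0375). It called 1.56% of the 10981 genes to which it gave an adjusted p, 0.501% of them lower. DESeq2 without the block called 0 of 10, against 0.0426% of genes with an adjusted p. limma-voom with the block did not call it (adjusted p = 0.336) and called 0 of 10, against 0.0559% of genes tested. Without Foxp1-deficient library 2, the edgeR fold change without a block was -0.40, and without control 1 it was -0.43.

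Spry1 (chromosome 3, 37639947 to 37644598), a Sprouty inhibitor of receptor tyrosine kinase signalling, had 222, 51.9 and 146 CPM in Foxp1-deficient libraries 1, 2 and 3, against 159, 26.3 and 142 CPM in controls 1, 2 and 3. It was higher in all 3 pairs, although pair 3 differed by 0.04 on the log2 scale and the groups overlapped. The log2 fold change was 0.39 (SE 0.67, adjusted p = 0.9998, edgeR), and it turned to -0.12 without Foxp1-deficient library 1 and to -0.05 without control 2. The promoters of Spry1 and Spred1, the feedback genes that differed one way in all 3 pairs and by the most, held none of the 3 motifs and are shown for comparison with those of Etv5.
Spry1, chr3:37639697-37639996, plus strand: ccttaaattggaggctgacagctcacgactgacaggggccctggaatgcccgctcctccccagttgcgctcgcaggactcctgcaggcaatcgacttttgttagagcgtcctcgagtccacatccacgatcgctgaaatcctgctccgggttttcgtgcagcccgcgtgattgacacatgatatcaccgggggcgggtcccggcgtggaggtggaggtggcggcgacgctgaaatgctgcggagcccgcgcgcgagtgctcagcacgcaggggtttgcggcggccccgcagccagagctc
Spred1, chr2:117120821-117121120, plus strand: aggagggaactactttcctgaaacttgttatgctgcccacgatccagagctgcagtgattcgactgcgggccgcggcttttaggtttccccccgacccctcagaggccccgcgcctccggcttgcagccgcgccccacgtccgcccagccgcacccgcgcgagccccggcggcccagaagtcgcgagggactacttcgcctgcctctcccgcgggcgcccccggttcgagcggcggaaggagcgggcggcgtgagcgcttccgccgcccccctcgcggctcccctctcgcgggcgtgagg

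The other Sprouty genes and Dusp6 had nearly equal means in both genotypes. Spry4 (chromosome 18, 38586268 to 38601268) had 39.6, 20.7 and 40.1 CPM in Foxp1-deficient libraries 1, 2 and 3, against 39.8, 17.7 and 39.7 CPM in controls 1, 2 and 3. Values of equal number lay close together while the libraries numbered 2 were low in both genotypes, and the log2 fold change was 0.07 (SE 0.39, adjusted p = 0.9998, edgeR). Spry2 (chromosome 14, 105891949 to 105896819) had 37.2, 15.2 and 47.1 CPM in Foxp1-deficient libraries 1, 2 and 3, against 45.4, 13.0 and 44.0 CPM in controls 1, 2 and 3. Its log2 fold change was -0.03 (SE 0.51, adjusted p = 0.9998, edgeR) and changed sign in 5 of 16 alternatives. Dusp6 (chromosome 10, 99263231 to 99267488), encoding a phosphatase that acts on ERK itself, had 96.5, 42.5 and 119 CPM in Foxp1-deficient libraries 1, 2 and 3, against 105, 51.5 and 120 CPM in controls 1, 2 and 3. The Foxp1-deficient value was lower in each pair, by at most 0.28 on the log2 scale, and the fitted log2 fold change was -0.11 (SE 0.41, adjusted p = 0.9998, edgeR). These standard errors do not show that the 3 genes were equal between genotypes.

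**Figure D2:**
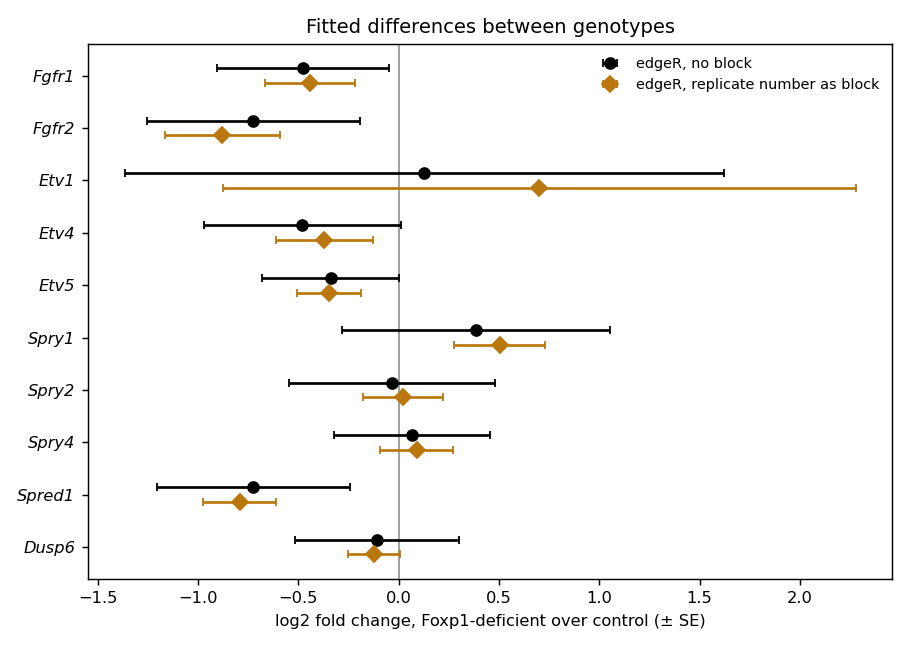
Log2 fold change of each gene, Foxp1-deficient over control (horizontal axis), from edgeR without a block (black circles) and with the replicate number as a block (orange diamonds); bars are ± 1 SE. Spred1 and Fgfr2 lie farthest below 0, at -0.72 each without the block, and the block narrows the bars of 9 genes, Etv1 being the exception.

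Fitting the replicate number as a block left the count of genes called at 0 of 10 and gave 2 of 10 an unadjusted p under 0.05, against 5.32% of genes tested. Both were lower, as were 2.26% of genes tested at that p. They were Spred1, given above, and Fgfr2, whose log2 fold change with the block was -0.88 (SE 0.29, unadjusted p = 0.0275, adjusted p = 0.853, edgeR). Etv5 had -0.35 (SE 0.16, unadjusted p = 0.0841, adjusted p = 0.853, edgeR with the block) and Spry1 had 0.50 (SE 0.22, unadjusted p = 0.0750, adjusted p = 0.853, edgeR with the block).

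Levels of different genes were compared per length, as TPM (counts divided by the deposited gene length and scaled to a fixed sum in each library). Spry1 was first and Dusp6 second in mean TPM in both genotypes, with Spry1 at 117 ± 93.8 TPM in Foxp1-deficient libraries and 83.0 ± 62.5 TPM in controls and Dusp6 at 71.7 ± 48.7 TPM in Foxp1-deficient libraries and 69.2 ± 40.0 TPM in controls (SD, n = 3 each). Spry2 and Spred1 came next and changed places, with Spry2 at 37.4 ± 26.1 TPM and Spred1 at 28.4 ± 21.1 TPM in Foxp1-deficient libraries, and Spred1 at 40.2 ± 24.2 TPM and Spry2 at 35.4 ± 23.9 TPM in controls. Etv4, Etv5, Spry4, Fgfr2 and Fgfr1 followed in that order in both genotypes, with Fgfr1 at 7.05 ± 4.78 TPM in Foxp1-deficient libraries and 9.44 ± 6.0 TPM in controls. Etv1 was last, at 0.516 ± 0.455 TPM in Foxp1-deficient libraries and 0.513 ± 0.445 TPM in controls. Most neighbours in this order were closer than the larger of their SDs. The exceptions were Fgfr1 against Etv1 in both genotypes, and Etv5 against Spry4 in controls.

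**Figure D3:**
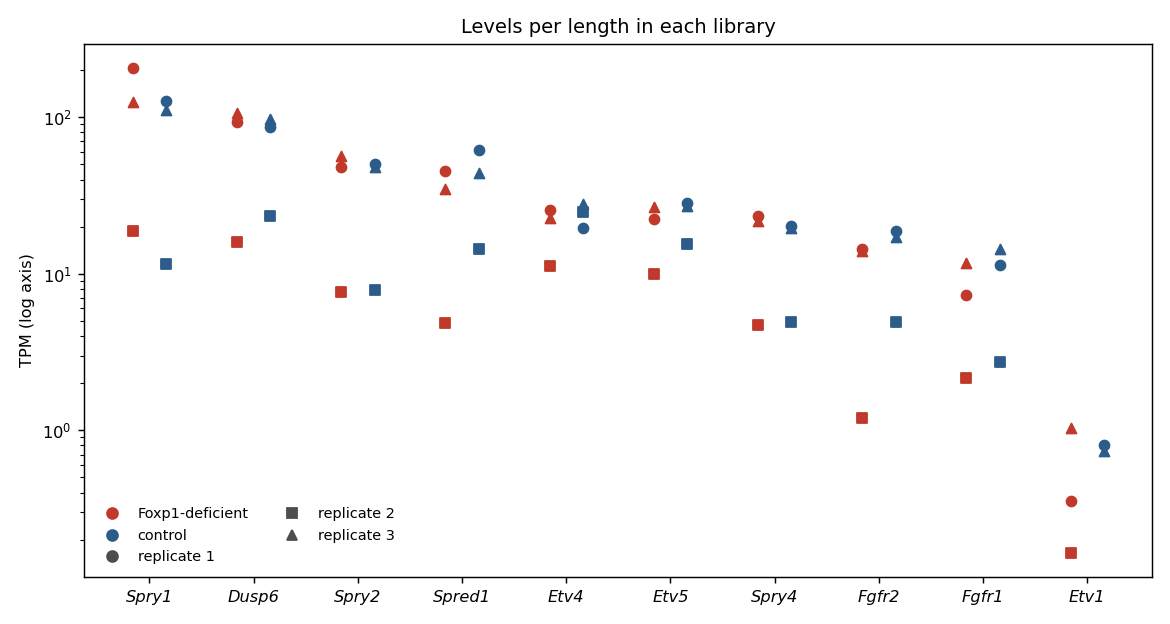
TPM per library on a log axis for the 10 genes, ordered by mean TPM over all 6 libraries; red points are Foxp1-deficient libraries, blue points are controls and symbols mark the replicate number. Squares, the libraries numbered 2, lie below the others for most genes, while Etv4 in control 2 lies among them; Etv1 in control 2 had a count of 0 and is not drawn.

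The libraries numbered 2 differed from the others in the levels of most of the 10 genes. For each gene, the CPM in library 2 was divided by the mean CPM of libraries 1 and 3 of its genotype. Over all genes tested the median of this ratio was 0.582 in Foxp1-deficient libraries and 0.632 in controls. Etv4 stood at 1.16 in Foxp1-deficient libraries and 1.88 in controls, and Etv5 at 1.00 in both. A ratio of at least 1 in both genotypes was thus found for 2 of 10 genes, against 23.4% of genes tested, which is near the background. The other 8 genes were below the all-gene median in both genotypes, against 38.2% of genes tested. Of these, Etv1 was just below it in Foxp1-deficient libraries, at 0.579, where library 2 held 9 counts. Spry1 was at 0.282 in Foxp1-deficient libraries and 0.175 in controls, and Dusp6 at 0.395 in Foxp1-deficient libraries and 0.458 in controls. Fgfr2 was at 0.208 in Foxp1-deficient libraries and 0.497 in controls. The libraries numbered 2 also had the lowest total counts of each genotype, and 14285 genes were detected in Foxp1-deficient 2 and 13885 in control 2, against at least 18241 in the other 4. The part of these differences in the ratios was not tested.

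**Figure D4:**
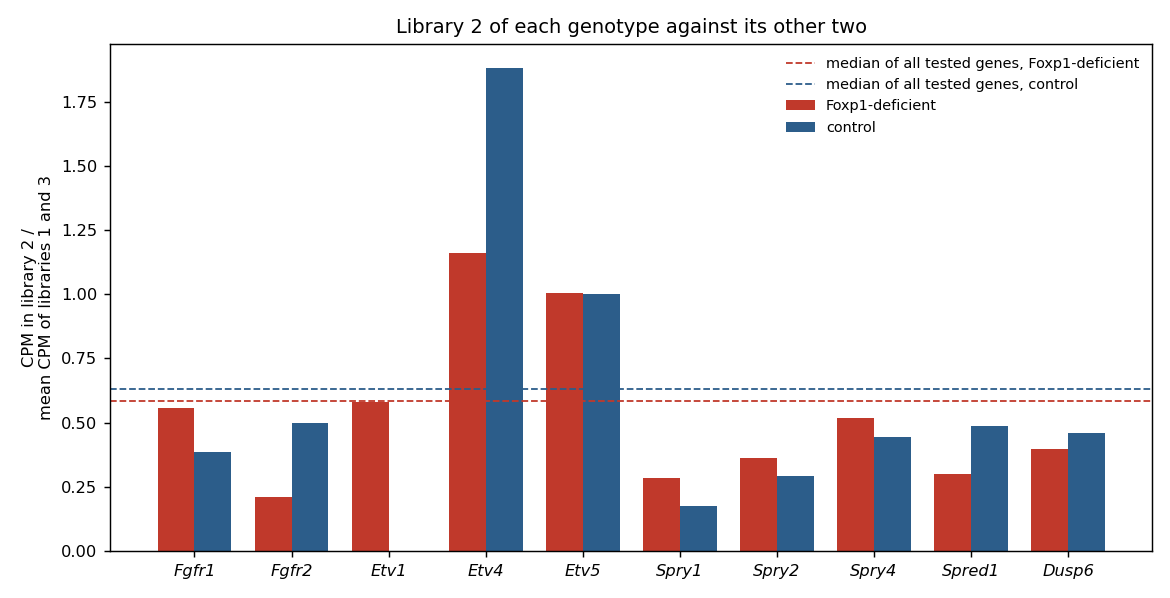
CPM in library 2 divided by the mean CPM of libraries 1 and 3 of the same genotype (vertical axis, linear, from 0) for each gene, Foxp1-deficient in red and control in blue; dashed lines are the medians over all 14311 genes tested, 0.582 and 0.632. Etv4 and Etv5 stand above both lines and the other 8 genes below; the control value of Etv1 is 0.

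Genes with the most similar profile over the 6 libraries were sought for the member of highest mean TPM in each role, by the root mean square difference of mean-centred log2(CPM + 1), among 9258 genes averaging at least 10 CPM. The closest to Fgfr2 were Mn1, at 0.08, and Tbp, at 0.14. Mn1 had 30.3, 7.11 and 34.1 CPM in Foxp1-deficient libraries 1, 2 and 3, against 49.0, 24.6 and 41.4 CPM in controls 1, 2 and 3. The closest of the other 9 members to Fgfr2 was Spred1, at 0.22, with 20 genes nearer than it. The closest to Etv4 were Gm14005, at 0.08, and Taldo1, at 0.10, which had 141, 190 and 155 CPM in Foxp1-deficient libraries 1, 2 and 3, against 143, 288 and 199 CPM in controls 1, 2 and 3. Etv5 lay at 0.37 from Etv4, with 889 genes nearer. The closest to Spry1 were Ube3c and Sec61a2, at 0.10 each, while Spry2, the nearest member, lay at 0.46, with 876 genes nearer. The median over all genes compared was 0.824 for Fgfr2, 0.764 for Etv4 and 0.906 for Spry1. These profiles rest on 6 libraries that share large differences in depth and composition.

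Other genes of the pathway also held 0 calls. Of 63 listed genes, 62 had a row and 53 could be tested, and 0 rose and 0 fell at an adjusted p under 0.05 in edgeR, with 0 at an unadjusted p under 0.05. A block for the replicate number gave 1 of 53, Fgf9, an unadjusted p under 0.05, against 5.32% of genes tested. The fold change was above 0 for 25 and below 0 for 28, with a median of -0.02 on the log2 scale. Among the ligands, Fgf9, which maintains nephron progenitors in developing mouse kidney, had 6.24, 4.33 and 7.65 CPM in Foxp1-deficient libraries 1, 2 and 3, against 15.1, 13.5 and 9.94 CPM in controls 1, 2 and 3. Its groups did not overlap under either scaling, and its log2 fold change was -1.12 (SE 0.50, unadjusted p = 0.0595, adjusted p = 0.9998, edgeR). In the fit with pairs it stood at -1.08 (SE 0.40, unadjusted p = 0.0438, adjusted p = 0.853, edgeR). Fgf18 had 4.46, 1.44 and 4.64 CPM in Foxp1-deficient libraries 1, 2 and 3, against 1.47, 0 and 1.26 CPM in controls 1, 2 and 3, and its log2 fold change of 1.98 had an SE of 1.39. Fgf2 was at -0.21 (SE 0.50). Groups not overlapping on the lower side were found for 1 of 53 pathway genes by library total, Fgf9, against 2.07% of genes tested. With TMM they were found for 3 of 53, Fgf9, Dusp5 and Elk3, against 2.11% of genes tested. Fgf18 stood apart on the higher side with TMM, as did 2.64% of genes tested. Fgf7, Fgf8, Fgf10 and Fgf20 were too low to test, with at most 1.95 CPM in any library.

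**Figure D5:**
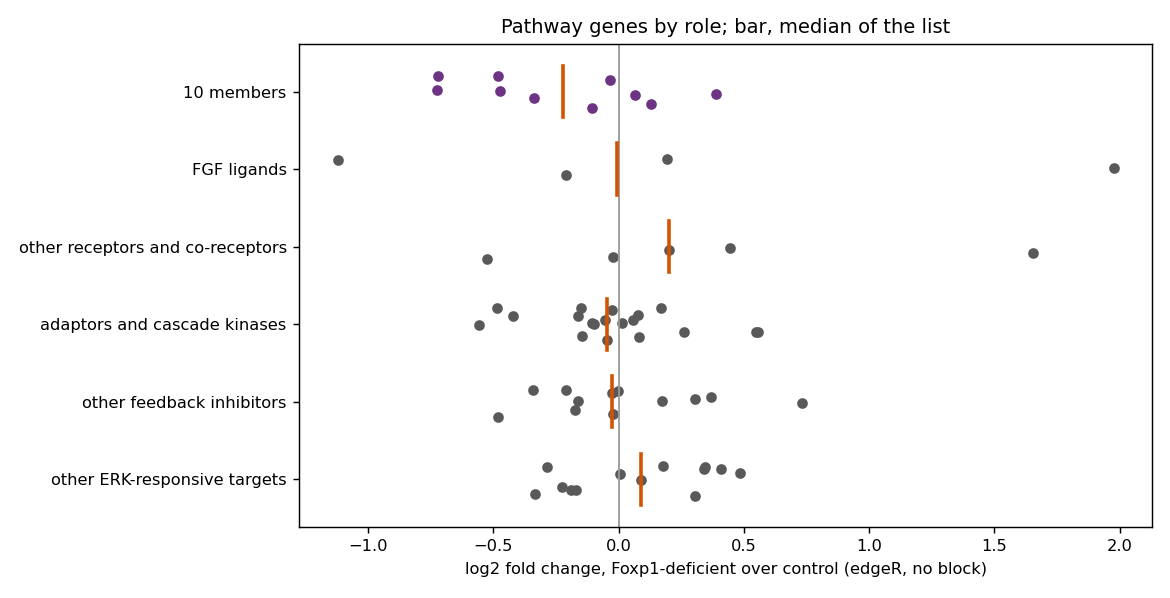
Log2 fold change, Foxp1-deficient over control, in edgeR without a block (horizontal axis) for the 10 genes described here (purple) and for the 53 tested genes of 5 pathway lists (grey); each point is a gene, vertical scatter within a list has no meaning and orange bars are list medians. The list medians lie between -0.22 and 0.20, with Fgf9 at -1.12 and Fgf18 at 1.98 as the outermost points.

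Among other receptors, Fgfr3 had a log2 fold change of -0.53 (SE 0.77), Fgfr4 of 1.65 (SE 1.48) and Met, the receptor gene for hepatocyte growth factor, of 0.44 (SE 0.63). Fgfr4 reached at most 2.27 CPM in any library. Ret, Gfra1 and Gdnf, which together drive bud branching, reached at most 1.96, 1.32 and 0.494 CPM and could not be tested, so Etv4 and Etv5 were measured in libraries with little Ret transcript. Among adaptors and kinases, Araf, a Raf family kinase gene, was at 0.55 (SE 0.56), Map2k1, encoding a MEK kinase, at -0.42 (SE 0.52) and Mapk3, encoding an ERK kinase, at 0.56 (SE 0.76). Map2k1 was lower in all 3 pairs, with 113, 20.9 and 84.0 CPM in Foxp1-deficient libraries 1, 2 and 3, against 115, 69.1 and 97.3 CPM in controls 1, 2 and 3. Araf turned to -0.26 and Mapk3 to -0.58 without Foxp1-deficient library 2.

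Among other feedback inhibitors, Spred3 was at 0.73 (SE 0.57), Dusp5, encoding a nuclear ERK phosphatase, at -0.48 (SE 0.38) and Dusp9 at 0.37 (SE 0.49). Spred3, a relative of Spred1, had 10.3, 6.49 and 11.2 CPM in Foxp1-deficient libraries 1, 2 and 3, against 4.27, 3.73 and 9.17 CPM in controls 1, 2 and 3, so it was higher in each pair in which Spred1 was lower. Among other targets, Ccnd1, encoding cyclin D1, was at 0.48 (SE 0.79), Elk1 at 0.41 (SE 0.69) and Elk3 at -0.17 (SE 0.32), the last 2 being ETS factor genes. None of these 15 pathway genes passed the test (adjusted p = 0.9998 for each, edgeR quasi-likelihood test). That fit, without a block, called no changed gene in simulated data, so equal levels were not shown for them either.

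Markers of cell types were summed beside these values, and the sums were not tested between genotypes. By library total, 16.1% of all genes tested were lower in all 3 pairs and 16.5% were higher. All 5 smooth muscle markers were lower in all 3 pairs, and they summed to between 5789 and 10262 CPM in Foxp1-deficient libraries and between 10488 and 17698 CPM in controls. The 7 macrophage and leukocyte markers summed to between 52.8 and 465 CPM in Foxp1-deficient libraries and between 253 and 996 CPM in controls. The 7 mesothelial markers summed to between 3172 and 5491 CPM in Foxp1-deficient libraries and between 2029 and 2267 CPM in controls. Of these, 4 were higher in all 3 pairs, namely Upk3b, Msln, Krt19 and Upk1b. Wt1 was lower in pairs 1 and 3, and Muc16 and Lrrn4 were lower in pair 2. The 6 nephron progenitor markers summed to between 12.7 and 20.6 CPM in Foxp1-deficient libraries and between 21.2 and 28.1 CPM in controls. Only 2 of them, Osr1 and Crym, were lower in all 3 pairs. In control 2, 4 of the 6 had no count and Crym alone had 22.2 CPM. The 6 cardiac muscle markers summed to between 1155 and 3295 CPM in Foxp1-deficient libraries and between 1322 and 5696 CPM in controls, and the sum was lower in all 3 pairs. Of the 6, Tnnt2 and Actc1 were lower in all 3 pairs and Nppa was higher in all 3. Myh6, Myh7 and Myl7 were lower in pairs 1 and 2 and higher in pair 3. The sum of the 10 tubule markers was higher in all 3 pairs, with 3 of them higher and 1, Cdh16, lower in all 3. Lrp2, which held most of that sum in pairs 1 and 2, was among those higher. Sums of 10 stromal, 9 ureteric bud, 7 endothelial and 6 erythroid markers had no common direction over the 3 pairs. Among stromal markers, Pdgfrb, Tcf21, Meis1 and Col1a1 were lower in all 3 pairs, and Dcn and Lum were higher. Ureteric bud markers summed to between 320.0 and 572 CPM in Foxp1-deficient libraries and between 262 and 513 CPM in controls, and Krt18 and Wnt11 held most of that sum. Krt18 was higher and Wnt11 lower in all 3 pairs. Endothelial markers summed to between 98.2 and 188 CPM in Foxp1-deficient libraries and between 55.0 and 174 CPM in controls. Tek made up most of that sum in Foxp1-deficient libraries and was higher in all 3 pairs, with 134, 91.5 and 136 CPM in Foxp1-deficient libraries 1, 2 and 3, against 113, 48.8 and 73.0 CPM in controls 1, 2 and 3. Flt1 was also higher in all 3 pairs, with a value of 0 CPM in control 2. Pecam1 and Kdr were lower in all 3 pairs. Pecam1 had 1.55, 1.13 and 11.1 CPM in Foxp1-deficient libraries 1, 2 and 3, against 17.4, 3.91 and 19.2 CPM in controls 1, 2 and 3. Erythroid markers summed to between 683 and 1170 CPM in Foxp1-deficient libraries and between 310.2 and 1004 CPM in controls. The part of these cell types in the lower values of Spred1, Fgfr2, Etv5 and Fgf9 was not tested.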

How the data were processed

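Ribosome-bound RNA was sequenced in 6 libraries, 3 per genotype, grouped by sample title. The deposited values are raw counts, 1 row per gene symbol, which the authors obtained with featureCounts 1.5.1, per the file headers. These headers give paired mode, exon features and version 86 of an mm10 annotation, with neither a strand nor a multi-mapping option. Reads of a gene and of an overlapping antisense gene therefore cannot be told apart. The submitters' processing notes list FastQC, Trimmomatic, STAR, SAMtools, deepTools and DESeq2 without versions. The deposited gene length in bases entered TPM only.

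Tests used edgeR 4.0.16 in R 4.3.3, with TMM factors, filterByExpr, the two-sided quasi-likelihood F test and Benjamini-Hochberg adjustment over all 14311 genes tested, at 0.05. Each SE is the fold change divided by the square root of its F statistic. CPM use library totals unless TMM is named. Alternatives were DESeq2 1.42.0, limma 3.58.1 (voom), other size factors and filters, a replicate block, and libraries left out. Data simulated from these libraries with known changes were fitted by edgeR with and without the block and by DESeq2 and limma-voom with it. Each returned median fold changes near those put in. The blocked fits among these called part of the changed genes, and the unblocked edgeR fit called none of them. The other alternatives were not simulated. Figures were drawn with matplotlib 3.10.9. Detection limits cover counting error only, and read counts are not counts of independent molecules.

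The 10 genes and the lists were chosen with earlier results of these data known. Genes named beyond the 10 are Foxp1, the 3 of lowest p in each of 5 pathway lists, and the 2 of most similar profile to the leading member of each role. Genes too low to test, and single marker genes from the cell type lists, were named after their values were seen.

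Replicate numbers were checked for pairing. Across genes, the deviations of equally numbered libraries from their group means had correlations of 0.71 for pair 1, 0.68 for pair 2 and 0.72 for pair 3. Among the controls, each Foxp1-deficient library matched the one of its own number best. Pairing by number thus rests on the data, and the labels do not state it.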

Additional observations from a re-analysis of the deposited data

How the results depend on the processing

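In the 16 alternatives, 0 of the 10 genes were called in 15, and DESeq2 with the replicate block called 1, Spred1 (log2 fold change -0.79); limma-voom with the replicate block called 0 of the 10. Over all genes the count was 0 in edgeR with the replicate block, 6 in DESeq2 without it, 171 in DESeq2 with it, 8 in limma-voom with it, and 30 in edgeR with the replicate block and both libraries numbered 2 left out. The block changed no other call named here. Pathway genes called numbered 0 in all 16. Leaving out 1 library at a time gave 0 to 0 genes called, 0 to 0 of the 10 and 0 to 0 pathway genes.

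Fold changes below are on the log2 scale. The direction of Fgfr1 (-0.75 to -0.22), Fgfr2 (-1.0 to -0.33), Etv5 (-0.50 to -0.22) and Spred1 (-1.08 to -0.40) was kept in all 16. With the replicate block, Spry2 turned to 0.021 in edgeR and 0.022 in DESeq2. Without both libraries numbered 2, Etv1 turned to -0.34, Spry4 to -0.0024 and Araf to -0.068; with the replicate block as well, these were -0.48, -0.0024 and -0.067. Leaving out 1 library at a time turned the direction of 13 genes in at least 1 case. The ranges were -0.45 to 0.61 for Etv1, -0.76 to 0.074 for Etv4, -0.12 to 0.78 for Spry1, -0.37 to 0.23 for Spry2, -0.16 to 0.22 for Spry4 and -0.32 to 0.14 for Dusp6. They were -0.26 to 0.87 for Araf, -0.58 to 1.24 for Mapk3, -0.62 to 0.13 for Fgf2, -0.50 to 0.92 for Ccnd1, -0.051 to 0.75 for Elk1, -0.074 to 0.85 for Dusp9 and -0.10 to 1.02 for Met. The cause was not tested. Etv1, Fgf18 and Fgfr4 have 15 alternatives each, since the stricter filter removed them. All 20 mean CPM moved by less than 1 SD when scaled by TMM.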
